A study of Homo sapiens with 6 samples.

Results

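The 10 genes described here were noncoding snoRNA host genes: GAS5, SNHG1, SNHG5, SNHG6, SNHG7, SNHG8, SNHG12, SNHG15, ZFAS1 and EPB41L4A-AS1. They were chosen by name, as host transcripts known to build up when translation slows, and with earlier results of these data known. Each was found once among the 63140 gene IDs of the count table. RNA-seq was performed on Y79, an established human retinoblastoma cell line with wild-type genotype in the sample labels. The 3 control libraries came from cells in complete medium. The 3 rhArg libraries came from cells given 2 U/mL of recombinant human arginase, which hydrolyses arginine to ornithine and urea, and collected after 72 h. All libraries were of 1 cell line, and the labels did not say whether the 3 libraries of a group were separate cultures, and the p-values therefore cover just library-to-library spread, part or all of which may be technical.

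A snoRNA guides chemical modification or processing of ribosomal RNA, and most human snoRNAs are cut out of the introns of a host gene. In the hosts described here the introns hold the conserved product, whereas the spliced exons encode no long protein. Many host transcripts, GAS5 being the textbook case, begin with a C followed by a run of pyrimidines (a 5' terminal oligopyrimidine or TOP motif, which places translation under mTOR), carry short reading frames, and are destroyed by nonsense-mediated decay while ribosomes translate them. GAS5, growth arrest-specific transcript 5, was named for its accumulation in cells that stop growing.

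The libraries held between 12580622 and 13747351 counts, and 15221 genes were tested with edgeR's quasi-likelihood test. Of all genes tested, 61.7% passed an adjusted p of 0.05, with 30.7% higher and 30.9% lower under rhArg, and the median log2 fold change was -0.005. Of the retinal lineage markers, CRX rose (log2 fold change 0.62), OTX2 fell by 0.42 and MYCN, the amplified oncogene of this line, fell by 2.05 on the log2 scale, and the summed level of the 7 photoreceptor and retinoblastoma markers went from 72308 to 90517 normalized counts in the controls to between 37643 and 38686 under rhArg, a sum carried by MYCN (means of 54266 and 13095). RCVRN and THRB did not pass, and ARR3 (-0.91) and SYK (-0.50) fell. The Mueller glia marker RLBP1 and the fibroblast marker LUM had 0 counts, and GLUL, the Mueller glia marker tested, fell by 0.31. The 4 fibroblast markers summed to between 55.7 and 66.8 normalized counts in the controls and between 43.4 and 44.9 under rhArg. The 1 of them tested did not pass. The summed pigment epithelium markers went from 5.39 to 10.9 in the controls to between 109 and 133, through BEST1. The sum of the 2 leukocyte markers went from at most 9.69 in the controls to between 14.0 and 22.0, through CD74 (2.60). The part of cell type markers in the results below was not tested, and in bulk RNA fewer cells of a type and less RNA per cell cannot be told apart.

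Under rhArg, 7 of the 10 host genes rose, 1 fell and 2 did not pass the test, against a background in which 61.7% of all genes passed (30.7% higher, 30.9% lower). The risers were EPB41L4A-AS1, SNHG7, SNHG1, GAS5, ZFAS1, SNHG8 and SNHG5, SNHG6 fell, and SNHG12 and SNHG15 were the members that did not pass. The 3 genes EPB41L4A-AS1, SNHG7 and SNHG1 also passed a log2 fold change of 1, which 12.4% of all genes did upwards. The median log2 fold change of the 10 genes was 0.66. In 8 of the 10 genes the values of the groups did not overlap, which held for 66.5% of all genes tested. All 10 genes passed the filter on low counts. The 10 genes together took 0.0636% ± 0.00198 (SD, n = 3) of the counts of a control library and 0.130% ± 0.00695 (SD, n = 3) of an rhArg library.

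**Figure D1:**
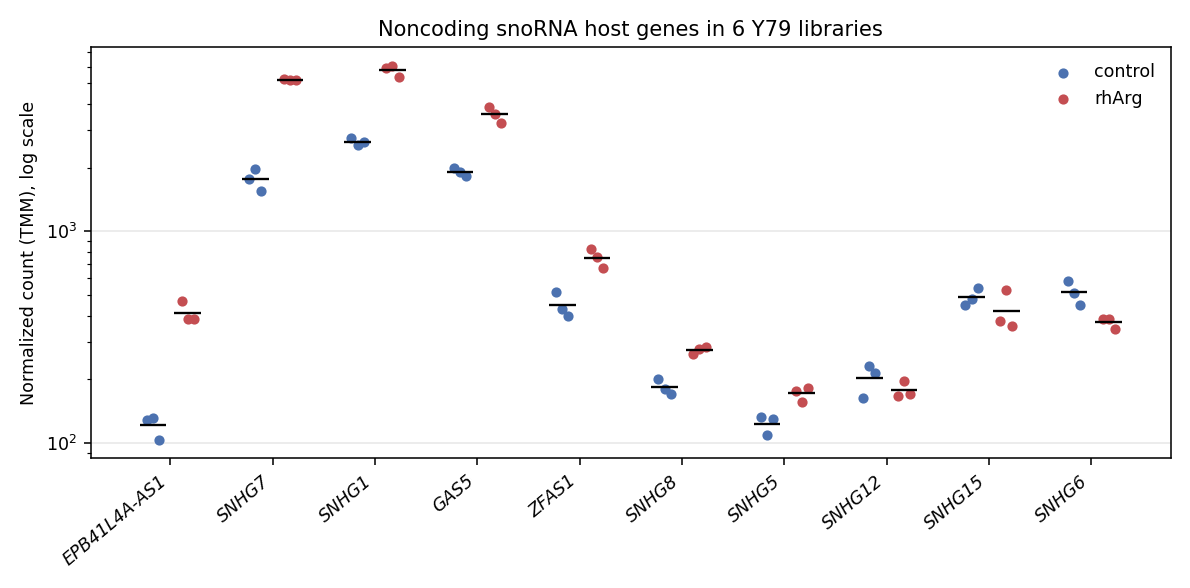
Normalized counts (TMM, log axis) of the 10 noncoding snoRNA host genes in each library, with control libraries in blue, rhArg libraries in red and a black bar at each group mean. The groups do not overlap for 8 genes, while SNHG12 and SNHG15 overlap, and SNHG6 is the member whose rhArg libraries all lie below the controls.

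GAS5 (ENSG00000234741, chr1:173858559-173868882, minus strand, hg38) is the host of a cluster of box C/D snoRNAs, and its spliced RNA is known to bind the glucocorticoid receptor. Its normalized counts were 1989, 1911 and 1831 in the controls and 3881, 3599 and 3233 under rhArg. All rhArg libraries lay above all controls, and the lowest rhArg library was still well clear of the highest control. The means were 1910 ± 79.3 and 3571 ± 325 (SD, n = 3 each), a 1.87-fold rise with a log2 fold change of 0.90 (SE 0.095, edgeR adjusted p = 6.71e-07). This rise stood at percentile 85.9 of the log2 fold changes of all genes tested, short of the log2 cutoff of 1. Of 29 annotated GAS5 transcripts in GENCODE 29, 6 begin with a C and at least 4 pyrimidines. The start of one of them, GAS5-210 at chr1:173867960-173867989 (minus strand), is shown because it holds the TOP-like run, in capitals. GAS5-210 is annotated as a retained intron.
GAS5-210: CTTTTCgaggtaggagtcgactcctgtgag

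SNHG1 (ENSG00000255717, chr11:62851978-62855953, minus strand) hosts several box C/D snoRNAs of the SNORD22 and SNORD25 to SNORD31 group. Its counts were 2775, 2564 and 2631 in the controls and 5919, 6038 and 5334 under rhArg. No library of one group reached into the range of the other. The rise was 2.17-fold, with a log2 fold change of 1.12 (SE 0.090, edgeR adjusted p = 3.65e-08). With a log2 fold change of 1 rather than 0 as the null value, SNHG1 did not pass (edgeR glmTreat adjusted p = 0.206).

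SNHG7 (ENSG00000233016, chr9:136721366-136728184, minus strand) hosts the box H/ACA snoRNAs SNORA17A and SNORA17B. Its counts were 1774, 1972 and 1554 in the controls and 5267, 5167 and 5180 under rhArg. The rhArg libraries were tightly grouped (SD 54.2), more so than the controls (SD 209), and the groups were far apart. The rise was 2.95-fold (log2 fold change 1.56, SE 0.099, edgeR adjusted p = 2.74e-09), and it passed with 1 as the null value as well (edgeR glmTreat adjusted p = 6.13e-05). Of the SNHG7 exon bases, 30.3% also lie in exons of the gene DIPK1B on the other strand, whose raw counts moved the opposite way, from 1145 to 1375 in the controls to between 630 and 666 under rhArg.

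EPB41L4A-AS1 (ENSG00000224032, chr5:112160526-112164818, plus strand) hosts SNORA13 and lies antisense to EPB41L4A. It had the largest fold change of the 10 genes at a low level. Its counts were 129, 131 and 104 in the controls and 468, 385 and 387 under rhArg, and every rhArg library lay well above every control. The rise was 3.41-fold (log2 fold change 1.77, SE 0.14, edgeR adjusted p = 3.18e-08), and it too passed with a null value of 1 (edgeR glmTreat adjusted p = 9.42e-05). The exons of EPB41L4A and its antisense gene share 51.3% of the EPB41L4A-AS1 exon bases, and EPB41L4A itself had raw counts of 41 to 49 in the controls and 79 to 96 under rhArg.

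ZFAS1 (ENSG00000177410, chr20:49278178-49299600, plus strand) hosts SNORD12, SNORD12B and SNORD12C and was named for its position antisense to the start of ZNFX1. Its counts were 517, 432 and 399 in the controls and 827, 759 and 669 under rhArg. The groups did not overlap, and the rise was 1.67-fold (log2 fold change 0.74, SE 0.12, edgeR adjusted p = 5.30e-05). Of the annotated ZFAS1 exon bases, 43.1% are shared with other genes, and the counting set no strand option.

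SNHG8 (ENSG00000269893, chr4:118278703-118285316, plus strand), the host of SNORA24, had counts of 201, 180 and 170 in the controls and 263, 279 and 284 under rhArg. SNHG5 (ENSG00000203875, chr6:85650491-85678932, minus strand), a host of SNORD50 snoRNAs, had counts of 132, 109 and 130 in the controls and 177, 157 and 181 under rhArg. The groups did not overlap for either gene. The log2 fold change was 0.59 for SNHG8 (SE 0.13, edgeR adjusted p = 8.84e-04). It was 0.47 for SNHG5 (SE 0.15, edgeR adjusted p = 0.0125), and without rhArg replicate 3 SNHG5 did not pass (edgeR adjusted p = 0.0550). Of the SNHG8 exon bases, 37.6% lie in exons of PRSS12 on the other strand, which had raw counts of 488 to 590 in the controls and 476 to 568 under rhArg.

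SNHG6 (ENSG00000245910, chr8:66920561-66926398, minus strand), the host of SNORD87, moved the other way. Its counts were 584, 511 and 451 in the controls and 387, 387 and 345 under rhArg, so that all rhArg libraries lay below all controls. It fell by 0.47 on the log2 scale (1.38-fold lower, SE 0.12, edgeR adjusted p = 0.00251). Of its exon bases, 62.4% are shared with other genes, most of them with MCMDC2, which had at most 5 raw counts in a library.

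SNHG12 (ENSG00000197989, chr1:28578538-28583132, minus strand), the host of SNORD99 and several SNORA snoRNAs, had counts of 164, 232 and 214 in the controls and 168, 197 and 170 under rhArg. SNHG15 (ENSG00000232956, chr7:44983019-44986961, minus strand), the host of SNORA9, had counts of 451, 479 and 542 in the controls and 378, 530 and 359 under rhArg. The groups overlapped for both genes. The log2 fold change of SNHG12 was -0.19 with a 95% interval from -0.49 to 0.11 (edgeR adjusted p = 0.296). That of SNHG15 was -0.22 with a 95% interval from -0.49 to 0.05 (edgeR adjusted p = 0.185). The SNHG15 value rested on rhArg replicate 2, the library at 530, and without it SNHG15 fell by 0.41 and passed (edgeR adjusted p = 0.0169).

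Levels between genes were compared as RPKM, taken over the exon bases that lie in no other gene. These lengths take in all annotated exons of a gene, so the order depends on the annotation as well as on the counts. SNHG5 and EPB41L4A-AS1, for instance, had control means of 124 and 121 normalized counts but lengths of 10876 and 1960 bases. In the controls the order was SNHG1 (59.9 ± 2.43, SD, n = 3 throughout), SNHG7 (42.7 ± 5.05), SNHG6 (41.1 ± 5.33), GAS5 (31.8 ± 1.32), SNHG15 (9.77 ± 0.925), ZFAS1 (7.21 ± 0.981), EPB41L4A-AS1 (4.70 ± 0.596), SNHG12 (3.99 ± 0.691), SNHG8 (3.48 ± 0.295) and SNHG5 (0.862 ± 0.0900). SNHG7 and SNHG6 were within the spread of each other in this order, as were EPB41L4A-AS1 and SNHG12, and SNHG12 and SNHG8. Under rhArg the level of SNHG1 (130 ± 8.5) and that of SNHG7 (126 ± 1.31) were within their spread, followed by GAS5 (59.5 ± 5.42) and SNHG6 (29.8 ± 1.93). The level of EPB41L4A-AS1 under rhArg (16.0 ± 1.83) was above those of ZFAS1 (12.1 ± 1.27) and SNHG15 (8.41 ± 1.87). GAS5, SNHG1 and SNHG7 carried between 75.0% and 75.7% of the counts of the 10 genes in the controls and between 84.6% and 85.2% under rhArg.

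The start regions are shown for the 4 genes that hold a TATA-like motif (TATANAA, chosen after the sequences were read) 40 to 20 bases before the start. Those of SNHG1 and EPB41L4A-AS1, which rose without a match to these letters, are shown as well. The SNHG1 line holds tatttaa in the same window, which TATANAA does not match. RefSeq promoters (GRCh38.p14) were matched for 8 of the 10 genes, all but SNHG6 and SNHG15. The GAS5 window, chr1:173869006-173869105 (minus strand), is not shown. It lies wholly upstream of the GAS5 span in the count table, which ends at 173868882. It therefore does not hold the TOP-like start shown above for GAS5, yet GAS5 is counted among the 8. Each line runs 5' to 3' on the strand of the gene from 60 bases before the RefSeq start to 40 bases from it. Capitals mark TATANAA on either strand (where both strands match in ZFAS1 the matches overlap) and a C at the start followed by at least 3 pyrimidines. The windows lie at chr1:28581834-28581933 (minus strand) for SNHG12, chr6:85678694-85678793 (minus strand) for SNHG5, chr9:136728145-136728244 (minus strand) for SNHG7, chr20:49278582-49278681 (plus strand) for ZFAS1, chr11:62855846-62855945 (minus strand) for SNHG1 and chr5:112160466-112160565 (plus strand) for EPB41L4A-AS1.
SNHG12: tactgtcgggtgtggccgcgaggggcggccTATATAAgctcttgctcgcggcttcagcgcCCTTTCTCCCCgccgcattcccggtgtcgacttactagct
SNHG5: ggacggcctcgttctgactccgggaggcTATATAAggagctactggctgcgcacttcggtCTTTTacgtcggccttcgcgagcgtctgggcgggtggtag
SNHG7: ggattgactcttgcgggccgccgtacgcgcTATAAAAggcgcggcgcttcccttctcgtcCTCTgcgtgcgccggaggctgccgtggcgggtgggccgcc
ZFAS1: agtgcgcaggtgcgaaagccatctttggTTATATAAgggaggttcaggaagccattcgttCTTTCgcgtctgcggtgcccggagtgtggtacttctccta
SNHG1: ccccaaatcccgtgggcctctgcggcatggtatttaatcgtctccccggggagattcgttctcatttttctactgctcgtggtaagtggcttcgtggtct
EPB41L4A-AS1: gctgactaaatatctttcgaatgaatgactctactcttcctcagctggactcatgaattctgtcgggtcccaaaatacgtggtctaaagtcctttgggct

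The motif TATANAA was chosen after these sequences were read, so its shares are no test. In that window, on the strand of the gene, 4 of the 8 host promoters and 1.48% of the 35116 in the table held it. On either strand anywhere in the 300 bases from 250 before to 50 after the start, it was found in 5 of 8 (SNHG8 in addition) and in 9.1% of all promoters. The genes with it moved differently in these cells, since SNHG7, ZFAS1 and SNHG5 rose and SNHG12 did not pass the test. A C followed by at least 4 pyrimidines stood at the RefSeq start of SNHG12, SNHG5 and ZFAS1, 3 of 8 against 4.07% of all promoters. The palindrome CACGTG, the E-box read by MYC family proteins, was found in the promoter of SNHG7 alone (1 of 8, against 7.26% of all). The composite amino acid response element letters TGATGNAAN were found in 0 of 8 (3.61% of all), and TGACGTCA, the cyclic AMP response element, in 0 of 8 (1.85% of all). A match or its absence here describes letters in this window and no binding. For GAS5 the window lies outside the span of the gene, so the lack of a match does not describe its other starts.

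By GENCODE 29 transcript starts, 7 of the 10 genes had at least 1 transcript that begins with a C and at least 4 pyrimidines, against 15.7% of all genes tested, 22 of 27 ribosomal protein genes that host snoRNAs and 6 of the 13 other noncoding hosts with annotated starts. The share of transcripts was 15.9% (21 of 132) for the 10 genes and 2.65% for all genes tested. The members without such a start were SNHG7, whose longest run after the C was 3 pyrimidines, SNHG15 and EPB41L4A-AS1. Of the 7 genes with such a start, 5 rose (GAS5, SNHG1, SNHG5, SNHG8 and ZFAS1), and SNHG6 and SNHG12, with runs of 6 and 10 pyrimidines, did not. Such a start was held by 6 of 29 transcripts of GAS5, 1 of 25 of SNHG1 and 3 of 23 of SNHG5. It was held by 1 of 5 of SNHG8, 3 of 10 of ZFAS1, 3 of 5 of SNHG6 and 4 of 17 of SNHG12. The SNHG1 transcript, SNHG1-203, is annotated as a retained intron. At the RefSeq start the run was 2 pyrimidines for SNHG1 and 0 for SNHG8. Of the 3 genes without one, SNHG7 and EPB41L4A-AS1 rose and SNHG15 did not pass. Gene counts do not say which of these starts were used.

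Other noncoding hosts mostly fell. Of 22 such genes by name, 15 passed the filter on low counts, of which 1 rose, 9 fell and 5 did not pass, with a median log2 fold change of -0.53. SNHG30 rose from 103, 115 and 89.0 normalized counts to 162, 221 and 144 (log2 fold change 0.77, SE 0.18, edgeR adjusted p = 0.00158). SNHG4 went from 672, 634 and 726 to 286, 308 and 330 (log2 fold change -1.14, SE 0.11, edgeR adjusted p = 1.82e-07). Every rhArg library of SNHG4 lay below every control. SNHG10 had a log2 fold change of -1.22 (SE 0.21, edgeR adjusted p = 1.01e-04), SNHG17 of -0.65 (SE 0.11, edgeR adjusted p = 1.13e-04) and SNHG3 of -0.53 (SE 0.091, edgeR adjusted p = 1.14e-04). SNHG28, DANCR and MEG8 were listed at 0 counts in all libraries.

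**Figure D2:**
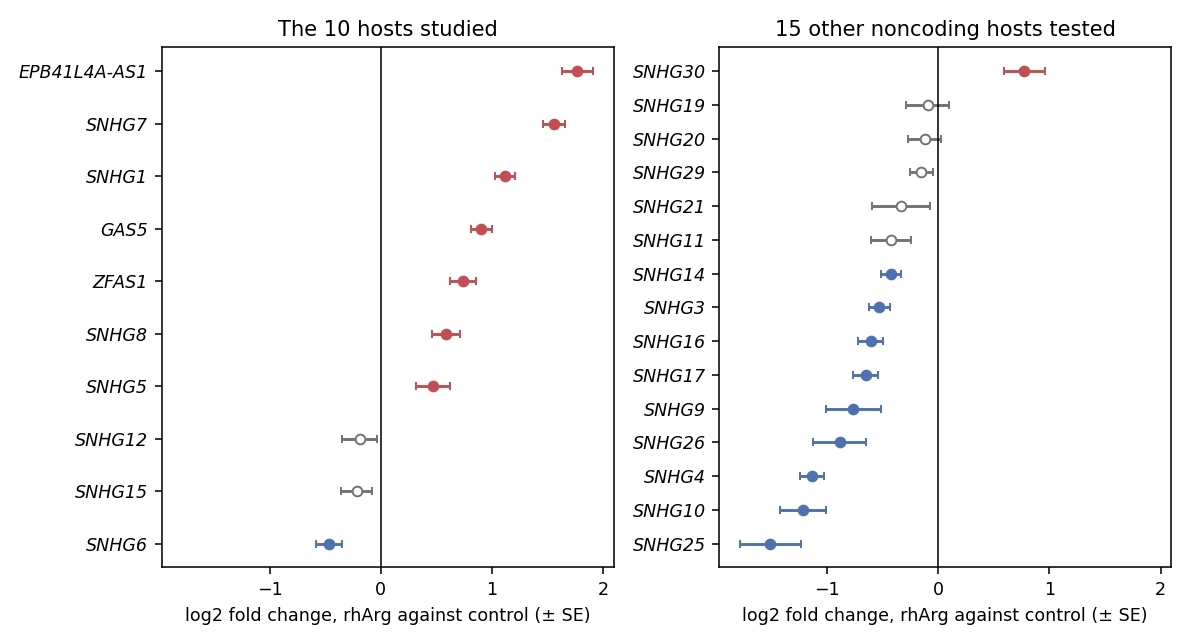
Log2 fold change (rhArg against control, with SE as horizontal bars) of the 10 hosts described here (left) and of the 15 other noncoding hosts tested (right), with red points for genes that rose, blue for genes that fell and open points for genes that did not pass the test (edgeR, adjusted p under 0.05). In the left panel 7 points lie right of 0 in red, and in the right panel SNHG30 is the single red point and 9 points are blue.

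A wider rule took long noncoding genes whose span holds, on the same strand, an ID named as a snoRNA gene, and used no list of host names. It found 28 tested genes, of which 10 rose and 10 fell (35.7% each, against 30.7% and 30.9% of all genes tested). GAS5 was missed by this rule, since 0 snoRNA IDs were matched to its span. Without the hosts described here the rule left 19 tested genes, of which 4 rose (21.1%) and 9 fell (47.4%). Beside hosts already named in either list, the rule added 4 genes, named here after their values were seen. UBA6-DT (log2 fold change 0.96), PCAT4 (0.94) and TMEM161B-DT (0.45) rose, and TIMM23B-AGAP6 (0.73, edgeR adjusted p = 0.173) did not pass. Of 161 protein-coding genes that hold a snoRNA, 31 rose (19.3%) and 67 fell (41.6%). Of 1674 long noncoding genes tested, 459 rose (27.4%) and 390 fell (23.3%), with a median log2 fold change of 0.07. Among the 299 of them whose normalized counts averaged 100 or more the median was 0.19 (124 higher or 41.5%, 80 lower or 26.8%).

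Ribosomal protein mRNAs are the classic TOP mRNAs, and a number of their genes host snoRNAs. Of 27 such genes, 10 fell, 17 did not pass and 0 rose by edgeR's quasi-likelihood test (also 0 higher at an unadjusted p under 0.05 and 0 by DESeq2), with a median log2 fold change of -0.18. The shares were 0% higher and 37.0% lower, against 30.7% and 30.9% of all genes tested. Those with the smallest adjusted p were RPS2 (-0.77), RPL23A (-0.77), RPL12 (-0.60) and RPL30 (-0.57). Of 28 other protein-coding hosts, 4 rose (14.3%), 15 fell (53.6%) and 9 did not pass (median -0.29). The 4 that rose were EEF2, the elongation factor that moves the ribosome along the mRNA (0.93, SE 0.10, edgeR adjusted p = 1.36e-06), TPT1 (0.49), EEF1B2 (0.28) and EIF4A2 (0.24). EEF2 had 100198, 96481 and 76191 normalized counts in the controls and 177051, 169158 and 174198 under rhArg, with no overlap. Among those that fell were NCL, which encodes nucleolin (-1.47, SE 0.090, edgeR adjusted p = 1.75e-09), TNPO2 (-1.21), SNX5 (-1.02) and NOP56 (-0.94).

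Transcripts of the proteins that package snoRNAs were mostly lower. Of 16 genes of snoRNP proteins and assembly factors tested, 13 fell, 2 did not pass and 1 rose, with a median log2 fold change of -0.66. The shares were 6.25% higher and 81.2% lower, against 30.7% and 30.9% of all genes tested. The riser was the gene of the assembly factor RPAP3 (0.31, SE 0.10, edgeR adjusted p = 0.0138). RUVBL1, an ATPase of snoRNP assembly, went from 1977, 1867 and 1659 normalized counts to 534, 554 and 560 (log2 fold change -1.74, SE 0.099, edgeR adjusted p = 7.85e-10). The genes of the H/ACA core proteins NHP2 (-1.53) and NOP10 (-1.16) and of the C/D core protein NOP56 (-0.94) fell as well. The snoRNAs themselves were barely seen. Of 23 snoRNA gene IDs inside the spans of the hosts, 20 had 0 counts in all libraries and the highest, SNORD99 in SNHG12, had a total of 18 counts over 6 libraries. The library kit was made for mRNA, and snoRNA IDs inside annotated host exons share those bases with the host, where the counting assigned a read to neither gene. The snoRNAs of GAS5 were not analysed here.

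Because host transcripts are known substrates of nonsense-mediated decay, its factors and its coding substrates were examined. Of 18 decay factors, 5 rose, 5 fell and 8 did not pass (median log2 fold change 0.08), or 27.8% in each direction, near the 30.7% and 30.9% of all genes tested. SMG9 (0.77), UPF3B (0.74), SMG6, the endonuclease of the pathway (0.71), and CASC3 (0.50) rose, and the exon junction genes MAGOHB (-0.96), RNPS1 (-0.93), MAGOH (-0.89) and EIF4A3 (-0.59) fell. Of 14 coding transcripts known as substrates, 6 rose (42.9%) and 8 fell (57.1%), with a median of -0.53. The risers with the smallest adjusted p were the stress-response transcription factor ATF3 at 4.10 (SE 0.15, edgeR adjusted p = 8.72e-12), the uridine phosphorylase UPP1 at 2.56, GADD45A at 1.81 and DDIT3 at 1.73, whereas the RNA-binding and splicing factor genes HNRNPDL (-1.59), SRSF7 (-1.45), SRSF2 (-1.32) and TRA2B (-0.65) fell. Gene counts do not separate the decay-prone isoforms of the splicing factor genes from their coding isoforms.

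In 3 of the 10 hosts another gene starts on the other strand within 2000 bases. SNHG1 starts 51 bases from SLC3A2, which encodes the heavy chain of the amino acid exchangers. SLC3A2 went from 1124, 1300 and 1020 normalized counts in the controls to 5465, 5605 and 4885 under rhArg, with no overlap (log2 fold change 2.21, SE 0.11, edgeR adjusted p = 1.24e-10). Both genes of the pair rose, SLC3A2 with the larger log2 fold change. The log2 ratio of SLC3A2 to SNHG1 was -1.22 ± 0.21 in the controls and -0.116 ± 0.00971 under rhArg (SD, n = 3 each), a difference of 1.10 (two-sided exact permutation test, p = 0.1, the smallest that 3 against 3 libraries allow).

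GAS5 and ZBTB37, a zinc finger gene, overlap at their annotated starts. ZBTB37 had 351, 271 and 401 normalized counts in the controls and 353, 385 and 341 under rhArg, so the groups overlapped (log2 fold change 0.08, 95% interval -0.19 to 0.34, edgeR adjusted p = 0.649). The log2 ratio of ZBTB37 to GAS5 changed by -0.81 under rhArg (exact permutation p = 0.1, again the smallest possible). ZNFX1, which overlaps the start of ZFAS1, went from 664, 629 and 750 to 923, 792 and 854 (log2 fold change 0.33, SE 0.10, edgeR adjusted p = 0.0112). All ZNFX1 libraries under rhArg lay above the controls, and the ratio of ZNFX1 to ZFAS1 changed by -0.41 on the log2 scale (exact permutation p = 0.1). Over the 3 pairs the Benjamini-Hochberg adjusted value of this exact test is likewise 0.1.

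**Figure D3:**
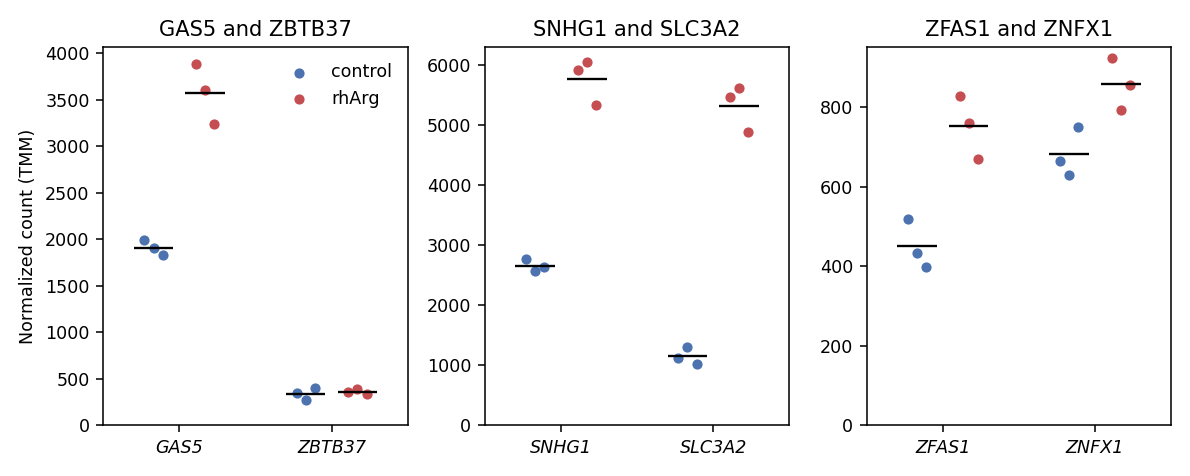
Normalized counts (TMM, linear axis from 0) of GAS5, SNHG1 and ZFAS1 beside the gene that starts on the other strand, with control libraries in blue, rhArg libraries in red and a black bar at each group mean. SNHG1 and SLC3A2 both rise, ZBTB37 stays within 271 to 401 counts in all 6 libraries while GAS5 rises, and ZNFX1 and ZFAS1 both rise.

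The genes whose pattern was closest to that of GAS5 were found by the root mean square difference of centred log2 values over the 6 libraries. The search covered the 10009 other genes with a gene name whose normalized counts averaged 100 or more, and IDs without a name were left out. The closest were CCDC33 (0.0432), MLXIP (0.0514), JMJD6 (0.0535), KMT2A (0.0557) and HIVEP1 (0.0558), none of them a snoRNA host in the lists used. With 3 libraries in each group, this likeness rests mainly on a similar difference between the groups. MLXIP, a glucose-sensing transcription factor also called MondoA, had a log2 fold change of 0.95, and KMT2A, a histone H3 lysine methyltransferase, one of 0.87. Of the other hosts, ZFAS1 ranked 89 and SNHG1 ranked 123 by this measure.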

How the data were processed

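RNA from Y79 cells was measured by RNA-seq in 3 control and 3 rhArg libraries, and groups and replicate numbers came from the sample labels. The authors filtered reads with SOAPnuke, mapped the rest to hg38 by HISAT2 and assigned reads to genes by featureCounts 2.0.1 (Ensembl release 112). The values they deposited are raw counts without normalization. No strand, multi-mapping or multi-overlap option was set, so reads that touch exons of more than 1 gene were not assigned.

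The test was edgeR 4.0.16 in R 4.3.3 (glmQLFit and glmQLFTest after filterByExpr and TMM, with condition as the only term), with Benjamini-Hochberg adjustment over the 15221 genes tested. Normalized counts were scaled by effective library size to the mean of the 6 libraries. The SE is the log2 fold change divided by the square root of F, and 95% intervals are normal approximations from it. With 3 libraries per group and totals between 12580622 and 13747351, edgeR estimated a common dispersion of 0.0110. The main edgeR test, and no other step, was tried on simulated counts first. Replicates of a group differed by more than sampling noise. Of 63140 IDs, 62541 had a symbol.

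The 10 hosts and all lists were chosen with earlier results of these data known, so no list was tested as a set. Named were all 10 hosts, their divergent neighbours within 2000 bases, up to 4 higher and 4 lower genes per list by smallest adjusted p, and the 5 genes most like GAS5. Alternatives were DESeq2 1.42.0, library totals, RLE or upper-quartile factors, dropping the low-count filter or raising it (1 CPM, mean count 20), leaving out each library, the replicate number as a block, and glmTreat. Sequences came from RefSeq (GRCh38.p14) and GENCODE 29. Columns left unused numbered 0. Of the genes that overlap a host, 1 is not reported here.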

Additional observations from a re-analysis of the deposited data

How the results depend on the processing

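Of 414 values computed under an alternative, 0 reversed. For the list counts and totals, 268 stayed within 1.5 times the value reported and 6 did not. Of the 10 hosts, between 6 and 7 rose and between 1 and 2 fell when each library was left out in turn, with 6 without rhArg replicate 3 (SNHG5 lost) and 2 without rhArg replicate 2 (SNHG15 gained), and 3 hosts passed a log2 fold change of 1 each time. The other protein-coding hosts that rose numbered between 2 and 4, with 2 without control replicate 3 and 2 without rhArg replicate 2. Ribosomal protein hosts that fell numbered between 8 and 15, with 15 without control replicate 3. The snoRNP genes that rose numbered between 0 and 1, with 0 without control replicate 3 and 0 without rhArg replicate 3. Without a filter on low counts, 2 other noncoding hosts rose instead of 1. Against a log2 fold change of 1, 2 hosts passed, SNHG7 and EPB41L4A-AS1. RLE factors, upper-quartile factors and library totals moved the median of all genes by 0.002, 0.025 and 0.003. With DESeq2 and without the low-count filter, both over 32795 genes, the shifts were -0.039 and -0.040. The log2 fold change of GAS5 lay between 0.84 and 0.96 with a library left out, and its adjusted p by edgeR was at most 2.64e-05. Deviations of same-numbered libraries from their group mean correlated at -0.16, 0.19 and 0.083. Since they were centred within 3 libraries, these values cannot tell whether the replicate numbers paired the libraries. With the replicate number as a block, 7 hosts rose, 1 fell and 3 passed a log2 fold change of 1, with 4694 genes higher and 4691 lower in all, and no call on a host changed.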

Other observations

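GAS5 RNA is known to act as a decoy for the glucocorticoid receptor, so the receptor and its standard target genes were read out. Of 8 tested, 3 rose, 2 fell and 3 did not pass, with a median log2 fold change of 0.08. The shares were 37.5% higher and 25.0% lower, near the 30.7% and 30.9% of all genes tested. NR3C1, which encodes the receptor, went from 533, 471 and 577 normalized counts in the controls to 974, 832 and 1001 under rhArg (log2 fold change 0.83, SE 0.11, edgeR adjusted p = 8.09e-06). TSC22D3, the leucine zipper gene induced by glucocorticoids, had 0, 6.46 and 14.7 normalized counts in the controls and 6813, 6410 and 6705 under rhArg, the largest log2 fold change of all genes tested (9.85, SE 0.27, edgeR adjusted p = 3.66e-13). SGK1 rose (0.47), and PER1 (-0.78) and ZBTB16 (-0.86) fell, so the target genes did not share a direction. The 3 risers became 2 without control replicate 2, without rhArg replicate 1 or without rhArg replicate 3, SGK1 being the gene lost.

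Of the other genes named as growth arrest-specific, 4 were tested. GAS7 rose from 295, 219 and 302 to 442, 512 and 494 normalized counts (log2 fold change 0.82, SE 0.13, edgeR adjusted p = 4.96e-05), and GAS6, the ligand of the TAM receptor kinases, rose as well (0.73, SE 0.11, edgeR adjusted p = 2.26e-05). GAS2L1 fell (-0.48, SE 0.14, edgeR adjusted p = 0.00611). The groups did not overlap in these 3 genes, which held for 66.5% of all genes tested, while 61.7% of all genes tested passed the test.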
